A study of Bos taurus with 96 samples.

Results

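Longissimus dorsi muscle (LD) of Wagyu x Angus steers was compared with LD of Angus steers, both raised on pasture after weaning. The comparison rests on the 8 arrays labelled LD, Wagyu x Angus and pasture and the 8 arrays labelled LD, Angus and pasture, 16 of the 96 arrays of the study. Every sample is labelled with 259 days in a feedlot. The remaining arrays hold LD of Hereford steers, LD of steers given supplement after weaning, and 5 fat depots. RNA of whole muscle with its marbling fat in place was hybridised to the one colour Agilent 4x44K bovine array, with each sample on an array of its own. The study drew its LD samples from 2 kills, 1 of them earlier, so the feedlot time on the labels may not hold for both, and the labels do not say which of the pasture samples belong to which kill. Some steers of a breed shared a sire.

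The longissimus is the large back muscle from which the loin and rib cuts are taken. It is built mainly of fast contracting fibres, with slow oxidative fibres between them and with adipocytes that form marbling, or intramuscular fat (IMF), in the connective tissue between fibre bundles. Wagyu cattle are known for heavy marbling and Angus cattle also marble well. An adipocyte is recognised in whole muscle RNA by genes that muscle fibres barely use, such as FABP4, which binds fatty acids, PLIN1, which coats the lipid droplet, and ADIPOQ, the secreted hormone adiponectin. In such RNA, fewer cells of a type and less RNA per cell cannot be told apart.

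The level of a probe is given as log2 of its processed signal minus the 75th percentile of the array, so a level of 0 is that percentile and a difference of 1 is a doubling. Of the 34227 probes tested, between 80.9% and 96.1% were well above background on each of the 16 arrays. The 13 skeletal muscle markers averaged between 8.53 and 9.15 on every array, and no 2 arrays held identical values. Of these arrays, each slide carried 1 breed. The Angus arrays came from slide 2, read on scan day 2, and slide 23, read on scan day 3. Wagyu x Angus arrays came from slides 13 and 14, read on scan day 1, and slide 20, read on scan day 3. Scan day 3 is thus the one day that both breeds shared, with 4 arrays of each. Breed and slide cannot be told apart on any day, and the sample labels do not say whether the slides hold different kills.

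On pasture, LD of Wagyu x Angus steers had higher levels of the aldo-keto reductases 20ALPHA-HSD and AKR1C4, of the zinc finger gene ZNF548 and of one probe of the amino acid transporter SLC38A9. It had lower levels of the peptide hormone gene UCN, of the oocyte gene OOEP and of the imprinted gene NNAT. No adipocyte marker, fibre type gene or respiratory chain subunit passed the test with all 16 arrays. In all, 1206 probes passed an adjusted p of 0.05 by limma, 3.52% of those tested, with 774 higher (2.26%) and 432 lower (1.26%) in Wagyu x Angus. Of them 680 had a gene symbol, for 607 genes. With each array centred on its mean instead, the split became 439 higher and 731 lower, while quantile normalisation gave 681 and 534. With slide as a random block, which takes arrays of 1 slide as alike, no probe passed (2769 had an unadjusted p under 0.05), and the correlation of arrays within a slide was 0.49. So the breed calls below from all 16 arrays rest on taking the arrays as separate samples, and none passed with the slide as a random block.

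The count also moved with single arrays. It fell to between 381 and 492 without any one of the 4 Angus arrays of slide 2, the array of slide 13 or the arrays of slide 14 at positions 1 and 2. It was 680 without position 2 of slide 20, 781 without position 4 of slide 20 and 745 without position 2 of slide 23, and it rose to 2356 without position 1 of slide 23. Of the 31 named genes past the threshold, ZNF548, RND2, 20ALPHA-HSD, AKR1C4, NNAT, OOEP and UCN passed whichever array was left out, and every other one lost its call without at least 1 array. Among all probes, 233 (0.681%) had no overlap between the 8 and the 8 arrays, and 214 of these were among the 1206.

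Of the 12 genes with the largest differences among those higher in Wagyu x Angus, 2 had no overlap between the breeds. Levels of 20ALPHA-HSD, an enzyme that inactivates progesterone, ran from -2.63 to -1.45 with a median of -1.97 in Angus and from -1.28 to -0.38 with a median of -0.84 in Wagyu x Angus. All 8 Wagyu x Angus arrays lay above all 8 Angus arrays, a difference of 1.18 ± 0.19 (SE) or 2.26-fold (adjusted p = 0.0108). AKR1C4, of the same enzyme family, ran from -1.95 to -0.38 with a median of -0.91 in Angus and from -0.23 to 0.72 with a median of 0.15 in Wagyu x Angus. Again no array overlapped, and the difference was 1.15 ± 0.20 (adjusted p = 0.0143), with its 2 other probes at 1.01 and 1.04. Both genes passed on scan day 3 alone, with 1.33 ± 0.27 (adjusted p = 0.0334) and 1.28 ± 0.27 (adjusted p = 0.0374). With scan day as a block over all 96 arrays their adjusted p was 0.0507 and 0.136. On supplement neither passed, and they stood at 0.34 ± 0.25 (adjusted p = 0.382) and, with the opposite sign, -0.38 ± 0.46 (adjusted p = 0.598). The members of this family are close in sequence, and their probes may read each other's transcripts.

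SLC38A9 encodes a lysosomal transporter that reports amino acids to the growth regulator mTORC1. Its level ran from -8.42 to -4.10 with a median of -7.56 in Angus and from -4.70 to -4.06 with a median of -4.20 in Wagyu x Angus. The probe was well above background on all 8 Wagyu x Angus arrays but on 3 of the 8 Angus arrays. Of those, the highest 2 lay within the Wagyu x Angus range, and the other 6 Angus arrays lay under it. The measured difference was 2.42 ± 0.59 (adjusted p = 0.0392), with most Angus levels not well above background, and the 2 other probes of the gene differed by 0.00 and 0.07. ZNF548 ran from -1.95 to 1.43 with a median of -0.86 in Angus and from 0.37 to 1.99 with a median of 1.60 in Wagyu x Angus. Of the Wagyu x Angus arrays, 7 lay above the highest Angus array, and the difference was 2.16 ± 0.43 (adjusted p = 0.0200). Scan day 3 alone gave 2.15 ± 0.72 (adjusted p = 0.116).

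CACNG4, an auxiliary subunit of calcium channels and glutamate receptors, ran from -4.10 to -1.21 in Angus and from -1.70 to -0.24 in Wagyu x Angus, with medians of -2.27 and -1.36. The arrays overlapped, and the difference was 1.28 ± 0.34 (adjusted p = 0.0492), a call lost when any 1 of 14 of the 16 arrays was left out (adjusted p up to 0.0789). On scan day 3 the difference was 1.92 ± 0.35 (adjusted p = 0.0235). CACNG4 also passed on supplement.

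The other 7 of the largest increases differed by 1.21 to 1.90. They were the axon guidance ligand SLIT1 (1.90 ± 0.49), the keratin associated protein gene KRTAP10-2 (1.48 ± 0.36), the neural membrane protein gene SEZ6L2 (1.43 ± 0.32), the small GTPase gene RND2, the transcription factor gene FEV (1.38 ± 0.32), the lymphocyte GTPase gene GIMAP5 (1.25 ± 0.32) and C2CD4B (1.21 ± 0.29). The RND2 probe was well above background on 0 of 8 Angus arrays and on 4 of 8 Wagyu x Angus arrays (adjusted p = 0.0218). With dim Angus levels raised to the lowest signal that passes as well above background, RND2 was 1.82-fold higher. That value takes dim Wagyu x Angus levels as measured, and on scan day 3 alone the difference was 0.62. SEZ6L2 was well above background on 1 of 8 Angus arrays and on all 8 Wagyu x Angus arrays, so the size of its difference rests on dim Angus levels. None of these 7 passed on scan day 3, with differences from 0.24 to 0.91. SLIT1 averaged 1.57 on the Wagyu x Angus arrays of scan day 1 and -0.79 on those of scan day 3, and GIMAP5 averaged 2.42 and 0.74. The second C2CD4B probe also passed, at 0.87, whereas the other 3 probes of KRTAP10-2 lay between -0.69 and 0.68 and the other probes of RND2 and GIMAP5 at -0.41 and 0.19. KRTAP genes are a large family of near copies, so that value is uncertain.

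**Figure D1:**
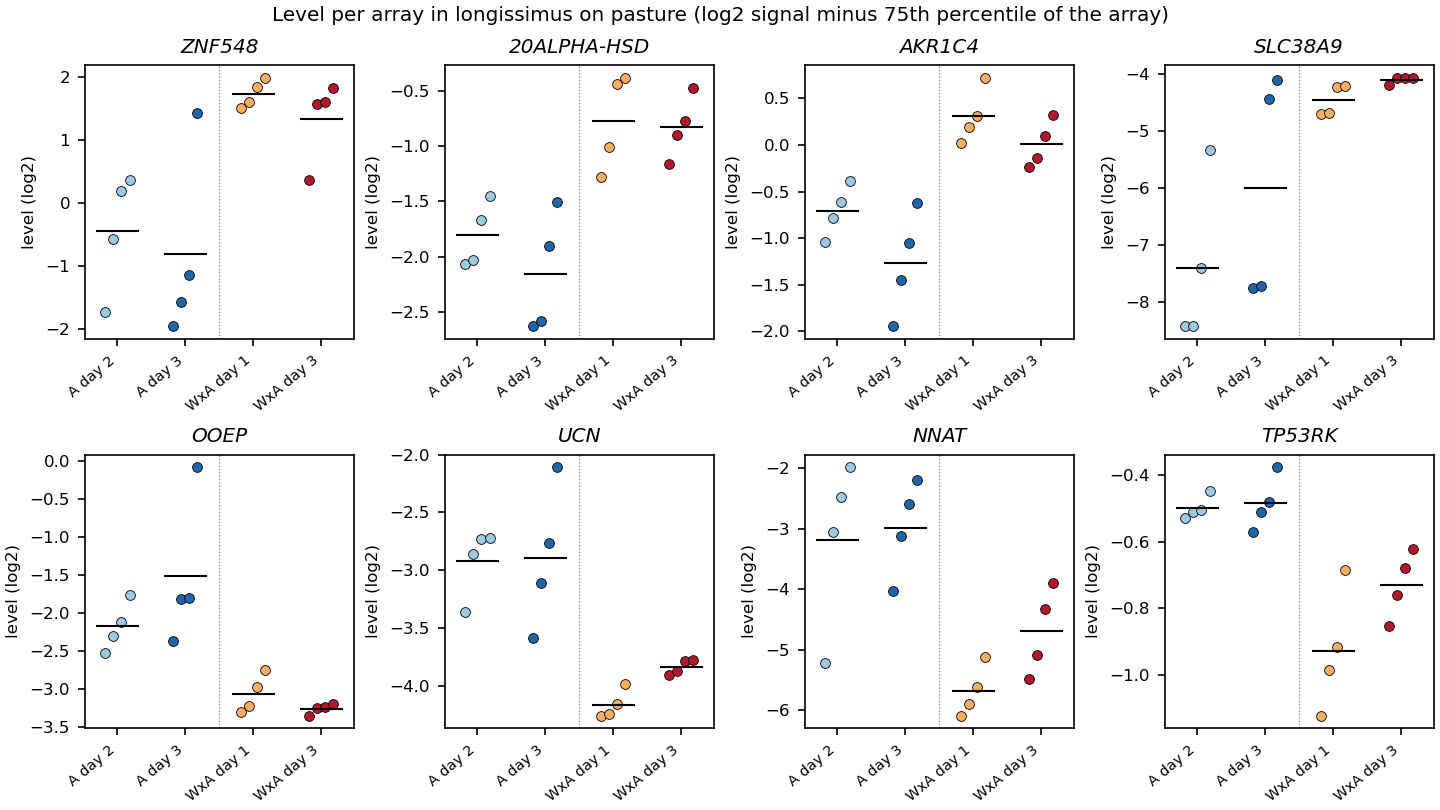
Level of 8 genes on each of the 16 LD arrays on pasture (y axis, log2 processed signal minus the 75th percentile of the array), by breed (A, Angus; WxA, Wagyu x Angus) and scan day. Points are arrays and bars are means of 4 arrays. 20ALPHA-HSD, AKR1C4, OOEP, UCN and TP53RK show no overlap between the 8 and the 8 arrays.

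Among the 12 largest decreases, UCN and OOEP had no overlap. UCN encodes urocortin, a relative of corticotropin releasing hormone. Its level ran from -3.59 to -2.11 with a median of -2.81 in Angus and from -4.26 to -3.77 with a median of -3.94 in Wagyu x Angus. The gene fell by 1.09 ± 0.17 (SE, adjusted p = 0.0102), and all 8 Wagyu x Angus arrays lay under all 8 Angus arrays. OOEP, known from the egg and early embryo, ran from -2.52 to -0.08 with a median of -1.97 in Angus and from -3.35 to -2.75 with a median of -3.23 in Wagyu x Angus. It was lower in all 8 Wagyu x Angus arrays, by -1.31 ± 0.26 (adjusted p = 0.0216). The differences on scan day 3 were -0.94 for UCN (adjusted p = 0.0855) and -1.74 for OOEP (adjusted p = 0.0560).

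NNAT, an imprinted gene for a small membrane protein of the endoplasmic reticulum, ran from -5.22 to -1.98 with a median of -2.83 in Angus and from -6.09 to -3.89 with a median of -5.30 in Wagyu x Angus. Its probe was well above background on all 8 Angus arrays and on 4 of 8 Wagyu x Angus arrays. The groups overlapped, and the difference was -2.10 ± 0.43 (adjusted p = 0.0229). Its 2 other probes differed by -1.04 each, so the 3 probes of NNAT had one direction. On scan day 3 the difference was -1.71 ± 0.46 (adjusted p = 0.0697).

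DNAJB1, a partner of the chaperone HSP70, ran from 1.29 to 3.49 with a median of 2.78 in Angus and from 0.91 to 2.16 with a median of 1.18 in Wagyu x Angus. The difference was -1.28 ± 0.30 (adjusted p = 0.0355), with 4 of 8 Wagyu x Angus arrays under every Angus array. FBP1, which encodes the fructose bisphosphatase of gluconeogenesis, differed by -1.40 ± 0.33 (adjusted p = 0.0338), and its second probe by -1.36.

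Other decreases of this size were those of SORBS2, a cytoskeletal adaptor (-1.86 ± 0.50), LHFPL6 (-1.59 ± 0.43), CYP3A76, a cytochrome P450 (-1.33 ± 0.32), SLC10A7 (-1.30 ± 0.34), PDE4B, which breaks down cyclic AMP (-1.12 ± 0.28), and PKP2 of the desmosome (-1.09 ± 0.26). Several of these probes were dim. LHFPL6 was well above background on 1 Wagyu x Angus array, CYP3A76 on 2, PKP2 on 4 and SORBS2 on 5. The CYP3A genes are near copies of each other, so that value is uncertain. The second PKP2 probe differed by 0.06, against the direction of the first, while the other probes differed by -0.53 to -0.01 for LHFPL6, -0.84 to -0.38 for SORBS2, -0.64 for CYP3A76 and -0.62 to -0.54 for PDE4B. None of the 12 passed on scan day 3 alone.

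Slides of 1 breed also differed. Angus arrays of scan day 3 differed from Angus arrays of scan day 2 at 11335 probes (33.1% of those tested), with 4 arrays against 4. Wagyu x Angus arrays of scan day 3 differed from those of scan day 1 at 5903 probes (17.2%). On scan day 3 alone, the 4 Wagyu x Angus arrays differed from the 4 Angus arrays at 1938 probes (5.66%), with 1591 higher and 347 lower. On the scan days that were not shared, 4 Wagyu x Angus arrays of scan day 1 differed from 4 Angus arrays of scan day 2 at 12286 probes (35.9%). Kill, slide and scan day cannot be told apart within a breed.

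**Figure D2:**
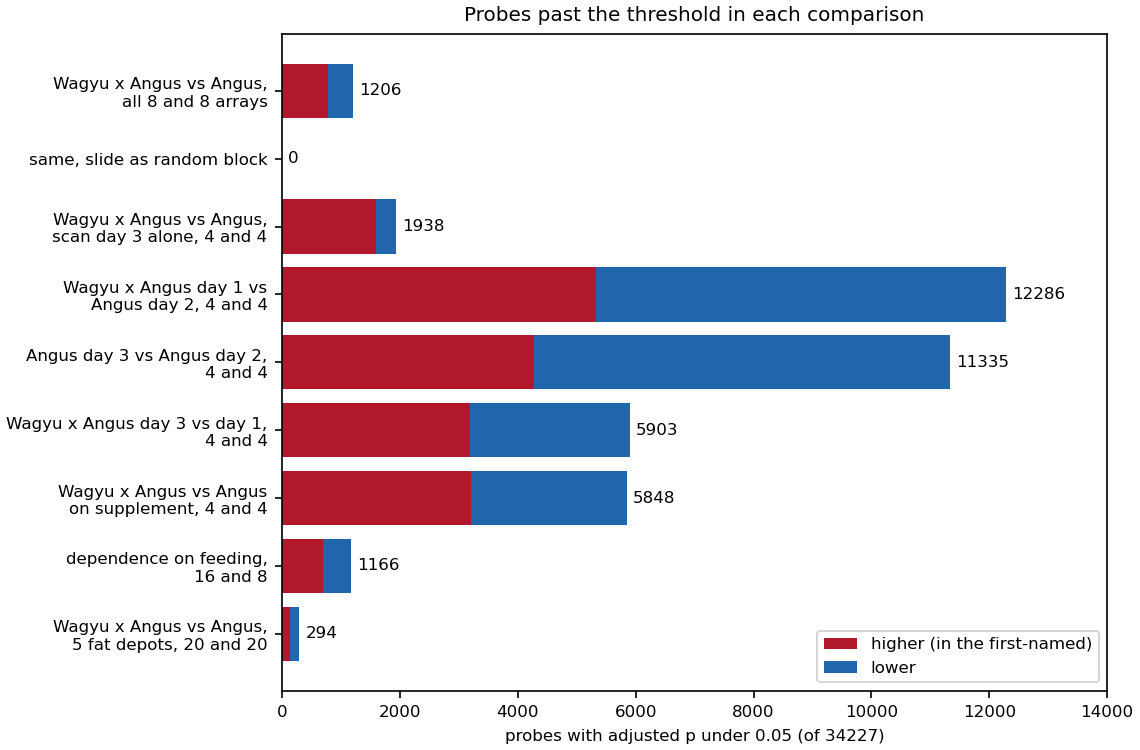
Number of probes with an adjusted p under 0.05 by limma (x axis, of 34227) in each comparison (y axis), split into higher and lower in the group named first (for dependence on feeding, a larger or smaller breed difference on pasture). With 4 arrays against 4, the breed difference runs from 1938 probes on the shared scan day to 12286 on the days not shared. With all 16 arrays and slide as a random block, it is 0 probes.

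Adipocyte markers differed between the scan days within Wagyu x Angus. Of 12 markers measured, 0 passed between the breeds, with a median difference of -0.66 beside -0.01 over all probes. Within Wagyu x Angus, however, 9 of the 12 were higher and 1 was lower on scan day 3 than on scan day 1, with a median difference of 1.5, where 17.2% of all probes passed. Within Angus 1 was higher and 3 were lower on scan day 3 than on scan day 2, a share close to the 33.1% of all probes. The mean level of the markers ran from -1.72 to -0.80 on the Wagyu x Angus arrays of scan day 1 and from 0.18 to 1.03 on those of scan day 3. Angus arrays lay from 0.27 to 0.98 on scan day 2 and from -0.46 to 0.56 on scan day 3. The 4 Wagyu x Angus arrays of scan day 1 thus stood under all other arrays, and the 4 of scan day 3 lay within or above the Angus range.

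FABP4 shows the split in 1 gene. Its level ran from 3.13 to 5.17 with a median of 4.53 in Angus and from -0.12 to 5.62 with a median of 2.74 in Wagyu x Angus. The mean was 1.03 on the Wagyu x Angus arrays of scan day 1 and 4.60 on those of scan day 3, a difference of 3.57 (adjusted p = 0.0102). Between the breeds FABP4 differed by -1.59 ± 0.73 (adjusted p = 0.206) with all arrays and by 0.54 ± 0.53 (adjusted p = 0.577) on scan day 3. PLIN1 had a mean of -2.87 on the Wagyu x Angus arrays of scan day 1 and of 0.04 on those of scan day 3, and ADIPOQ had means of -2.48 and -0.29. Their breed differences were -1.54 ± 0.61 (adjusted p = 0.147) and -1.31 ± 0.54 (adjusted p = 0.162). CIDEC, which enlarges lipid droplets, and THRSP, a nuclear protein of fat making cells, had the widest splits of the 12, at 3.88 (adjusted p = 0.00453) and 4.49 (adjusted p = 0.00435) between the Wagyu x Angus scan days. LEP, the hormone leptin, had medians of -4.90 in Angus and -5.22 in Wagyu x Angus and was well above background on 6 and 4 of 8 arrays.

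Genes of fatty acid and triacylglycerol synthesis were split by scan day too, with 9 of 15 higher and none lower on scan day 3 than on scan day 1 in Wagyu x Angus (17.2% of all probes passed). In Angus 7 of 15 were lower and none higher on scan day 3 than on scan day 2 (33.1% of all probes passed), with a median of -0.57. None of the 15 passed between the breeds (median -0.29). On scan day 3 alone 3 of 15 were higher in Wagyu x Angus, where 5.66% of all probes passed and most of those were higher, with a median of 0.39 beside 0.03 over all probes. Among them were SCD, the desaturase that makes oleic acid (0.74 ± 0.15, adjusted p = 0.0317), and DGAT2, which closes the path to triacylglycerol (0.73 ± 0.17, adjusted p = 0.0447). SCD ran from 3.49 to 4.68 in Angus and from 3.00 to 4.71 in Wagyu x Angus, with medians of 3.99 and 3.93. On scan day 1 the 4 Wagyu x Angus arrays lay between 3.00 and 3.55, and on scan day 3 all 4 lay above the 4 Angus arrays of that day. FASN, the fatty acid synthase, differed by -0.53 ± 0.37 (adjusted p = 0.407) with all arrays and by 0.71 ± 0.35 (adjusted p = 0.251) on scan day 3. The adipocyte markers had a median of 0.36 on the same day, and their part in the difference was not tested.

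**Figure D3:**
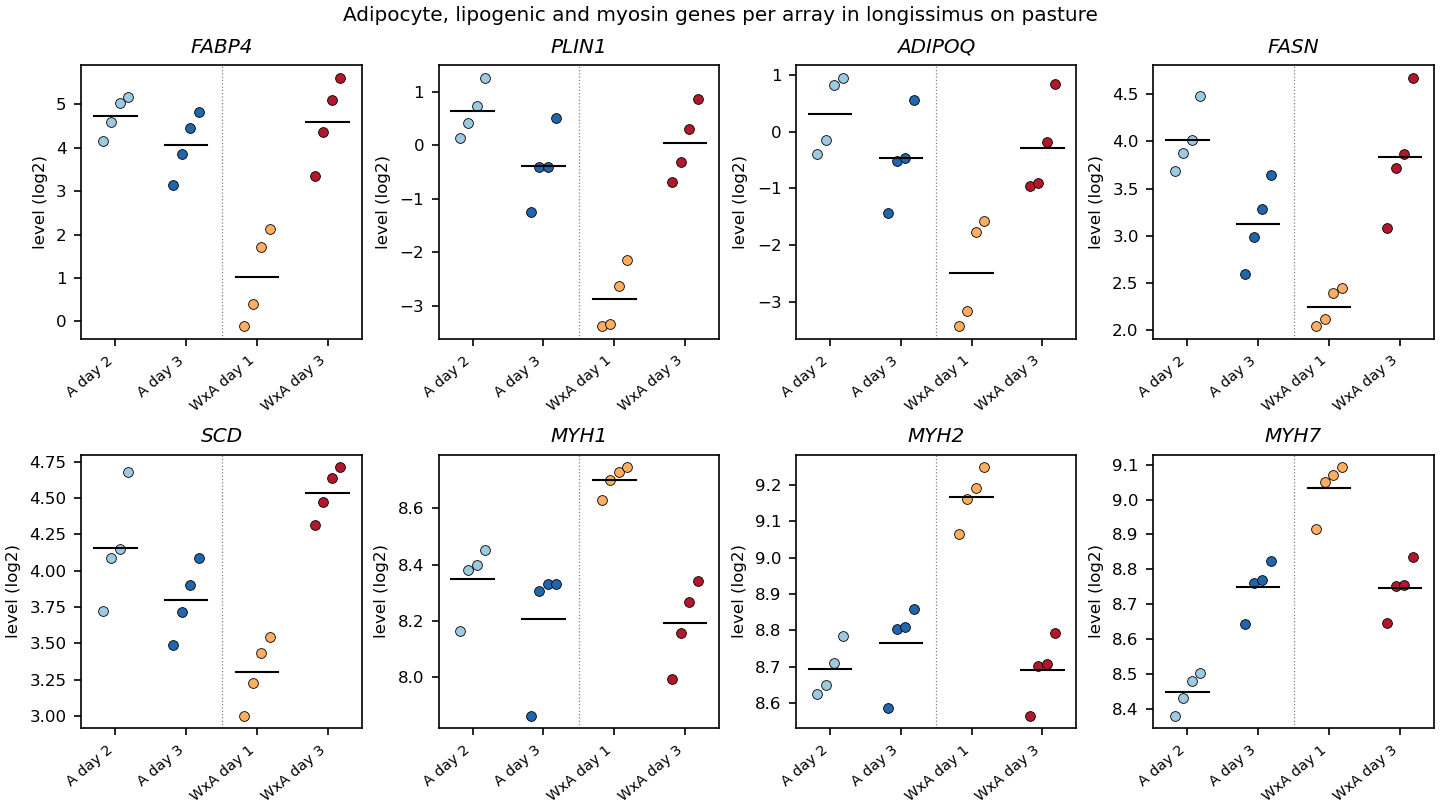
Level of adipocyte genes (FABP4, PLIN1, ADIPOQ), lipogenic genes (FASN, SCD) and myosin heavy chain genes (MYH1, MYH2, MYH7) on each of the 16 LD arrays on pasture (y axis, log2), by breed (A, Angus; WxA, Wagyu x Angus) and scan day. Points are arrays and bars are means of 4. FABP4 averaged 1.03 on the Wagyu x Angus arrays of scan day 1 and 4.60 on those of scan day 3.

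Among other lipid genes 1 passed between the breeds. Of 14 genes of fatty acid uptake, lipid droplets and lipolysis none passed (median 0.09), with LPL, the lipase of capillaries, at -0.15 ± 0.31 (adjusted p = 0.805). ABHD5, a cofactor of lipolysis, was the 1 member of 14 past the threshold on scan day 3 (0.38 ± 0.09, adjusted p = 0.0481), a share near the 5.66% of all probes. Among 9 adipogenic transcription factors EBF1 was lower (-0.56 ± 0.15, adjusted p = 0.0496), and the median was -0.17. Over all 25 lists together 5 genes passed, a smaller share than the 3.52% of all probes. PPARG, the master regulator of fat cells, stood at -0.56 ± 0.28 (adjusted p = 0.229) and CIDEA, a lipid droplet protein, at -0.36 ± 0.19 (adjusted p = 0.272). None of 17 genes of beta-oxidation passed (median 0.10).

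Of 20 genes of cholesterol synthesis and oxysterols 1 passed, a share near the 3.52% of all probes. INSIG1, which holds the sterol sensor SCAP in the endoplasmic reticulum, ran from -1.62 to -0.70 with a median of -1.23 in Angus and from -0.81 to -0.19 with a median of -0.56 in Wagyu x Angus. It was higher by 0.67 ± 0.14 (adjusted p = 0.0251), with 0.56 ± 0.20 on scan day 3 (adjusted p = 0.142), and 5 of 8 Wagyu x Angus arrays lay above every Angus array. The median of the list was 0.04. CH25H, which makes 25-hydroxycholesterol, ran from -1.97 to 0.74 with a median of -1.22 in Angus and from -2.72 to -0.36 with a median of -1.44 in Wagyu x Angus. The groups overlapped, at -0.46 ± 0.42 (adjusted p = 0.528).

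No muscle fibre gene passed between the breeds. No slow fibre gene of 10 (median 0.18) and no fast fibre gene of 12 (median 0.11) passed. The slow myosin gene MYH7 differed by 0.29 ± 0.09 (adjusted p = 0.0824), and the fast myosin genes MYH1 and MYH2 by 0.17 ± 0.12 (adjusted p = 0.425) and 0.20 ± 0.10 (adjusted p = 0.256). These 3 differed on scan day 3 by 0.07 or less in size. Neither the 18 glycogen and glycolysis genes (median 0.10) nor the 85 respiratory chain subunits (median 0.01) had a member past the threshold. Among 16 genes of muscle growth and proteolysis CAPN1, the mu-calpain that softens meat after slaughter, was higher by 0.77 ± 0.20 (adjusted p = 0.0484). Its level ran from -3.81 to -2.88 in Angus and from -3.20 to -1.70 in Wagyu x Angus, with 6 of 8 arrays above every Angus array. The mean of CAPN1 on scan day 1 was -2.20 and on scan day 3 -2.98 in Wagyu x Angus, and the breed difference on scan day 3 was 0.13 ± 0.16 (adjusted p = 0.653).

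Fast fibre and glycolytic genes also moved with the scan day within Wagyu x Angus, against the direction of the adipocyte markers. On scan day 3, 10 of the 12 fast fibre genes and 11 of the 18 glycolytic genes were lower than on scan day 1, and 2 glycolytic genes were higher (17.2% of all probes passed). Of the 13 general skeletal muscle markers, 9 were lower and none was higher there, and their part in this was not tested. In Angus 6 glycolytic genes were higher and none was lower on scan day 3 than on scan day 2, and 3 fast fibre genes were higher and 1 lower. In both lists the share that passed was close to the 33.1% of all probes. The mean level of the fast fibre list ran from 7.49 to 7.68 on the Wagyu x Angus arrays of scan day 1 and from 7.03 to 7.31 on the other 12 pasture arrays.

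Markers of other cells of muscle passed in 1 case. Of 22 collagen and matrix genes (median -0.19), 9 macrophage markers (-0.33), 8 endothelial markers (0.02), 7 smooth muscle markers (-0.48), 8 Schwann cell markers (0.16) and 5 red blood cell markers (-0.21), none passed. Among 9 lymphocyte markers (median -0.17), the B cell receptor gene CD79A was higher in Wagyu x Angus. Its level ran from 0.68 to 1.18 with a median of 0.85 in Angus and from 1.12 to 1.99 with a median of 1.32 in Wagyu x Angus, a difference of 0.57 ± 0.13 (adjusted p = 0.0302). It averaged 1.71 on the Wagyu x Angus arrays of scan day 1 and 1.16 on those of scan day 3, and the breed difference on scan day 3 was 0.28 ± 0.11 (adjusted p = 0.172). The B cell marker MS4A1 stood at -0.18 ± 0.30 (adjusted p = 0.751). None of 17 major histocompatibility genes (median 0.01), 18 interferon-stimulated genes (-0.04), 15 immediate early genes (-0.17), 12 circadian clock genes (0.11) or 75 cytosolic ribosomal protein genes (-0.08) passed. DNAJB1 was the 1 heat shock gene of 16 past the threshold (median -0.17), where 3.52% of all probes passed.

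**Figure D4:**
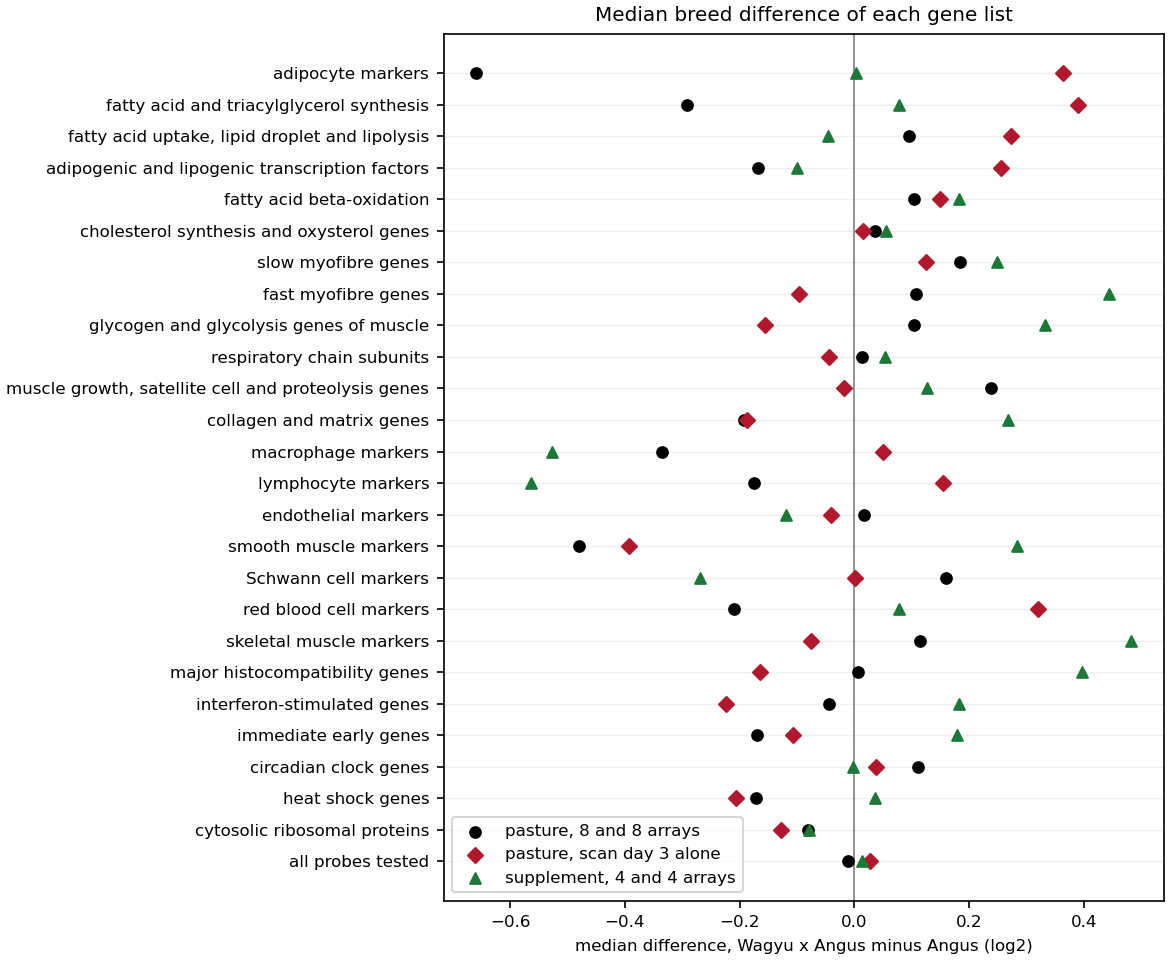
Median difference between Wagyu x Angus and Angus LD (x axis, log2) of each gene list (y axis) with all 16 pasture arrays, with the 8 pasture arrays of scan day 3, and on supplement. The adipocyte markers lay at -0.66 with all pasture arrays and at 0.36 on scan day 3, and all probes lay near 0 throughout.

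Steers given supplement after weaning provide the same contrast in arrays that the pasture comparison does not use. There 5848 probes passed (17.1%), with 4 arrays against 4, but again each breed lay on 1 slide, Angus on scan day 2 and Wagyu x Angus on scan day 1. Of the 1206 probes past the threshold on pasture, 70.6% had the same sign on supplement, beside 66.5% of all probes. For the 1938 probes past it on scan day 3, which share neither array nor scan day with the supplement arrays, that share was 49.9%, beside 48.7% of all probes. The scan days of the supplement arrays are those that the breeds did not share on pasture, so scan day and breed cannot be told apart on supplement.

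Of the 31 named genes past the threshold on pasture, 8 also passed on supplement, where 17.1% of all probes and 27.3% of the 1206 did. CACNG4 (1.40 ± 0.39, adjusted p = 0.0417) and CAPN1 (1.18 ± 0.22, adjusted p = 0.00948) were higher on supplement as on pasture. LHFPL6 (-1.75 ± 0.19, adjusted p = 0.00220), SLC10A7 (-1.998 ± 0.33, adjusted p = 0.00618), EBF1 (-0.36 ± 0.10, adjusted p = 0.0458) and IMMP1L (-1.18 ± 0.15, adjusted p = 0.00325) were lower on supplement as on pasture. On the shared scan day, however, these 4 differed by -0.28, -0.14, -0.15 and -0.17, and none passed, nor did CAPN1. Within Angus, LHFPL6, SLC10A7 and IMMP1L fell by 1.92, 1.62 and 1.13 from scan day 2 to scan day 3, and each of these passed. KRTAP10-2 (-0.77 ± 0.19, adjusted p = 0.0247) and CD79A (-0.56 ± 0.15, adjusted p = 0.0339) were lower on supplement although higher on pasture. The breed difference on pasture and that on supplement differed from each other at 1166 probes (3.41%), KRTAP10-2, CD79A and LEP (adjusted p = 0.0430) among them. The feeding groups lay on different slides and only pasture had arrays of scan day 3, so feeding and slide cannot be told apart here. KRTAP10-2 differed between the breeds on pasture by 2.72 on the days not shared and by 0.24 on scan day 3. With scan day as a block, chosen after seeing the data, the breed difference depended on feeding at 3090 probes. On supplement LEP was higher in Wagyu x Angus by 2.10 ± 0.41 (adjusted p = 0.0117).

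On supplement some muscle fibre genes were higher in Wagyu x Angus. Of the 12 fast fibre genes 5 were higher and none was lower (median 0.44), where 17.1% of all probes passed, with the calcium store gene CASQ1 at 1.67 ± 0.31 (adjusted p = 0.00968) and MYBPC2 at 1.12 ± 0.20 (adjusted p = 0.00902). Of the 18 glycolytic genes 5 were higher and none was lower (median 0.33). The general skeletal muscle markers, which share MYH1 and MYH2 with the fast fibre list, moved with them, with 7 of 13 higher and none lower (median 0.48), and their part in these differences was not tested. Lymphocyte markers had 4 of 9 lower, with MS4A1 at -1.90 ± 0.20 (adjusted p = 0.00217). Adipocyte markers had 3 of 12 higher and 1 lower, and their median was 0.00.

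The fat depots give the same breed contrast in another tissue. The depots were dissected marbling (IMF), rump fat from under the skin (SC), seam fat from between muscles (Inter), fat around the kidney (Kid) and fat of the omentum (Omen), with 4 arrays a breed in each. With depot as a factor over the 40 arrays, 294 probes passed between the breeds (0.859%). Of these 294, 61.6% had the same sign in LD on pasture, beside 47.0% of all probes, and of the 1206 called in LD 37.1% had the same sign in fat. Both comparisons called 20 probes with one sign, which is 1.66% of the 1206 called in LD. The study dissected the depots from the same carcasses, and the labels do not tie arrays to steers, so the 40 arrays are not separate animals, p-values in fat are too small and the 5 depots are not independent of each other. Fat and LD arrays may also share steers.

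In LD on pasture and in fat, and on supplement at an unadjusted p under 0.05 (33.2% of all probes), 11 probes differed with one sign. They had a symbol in 3 cases. TP53RK, a kinase of the complex that modifies transfer RNA, ran from -0.57 to -0.38 with a median of -0.51 in Angus LD and from -1.12 to -0.62 with a median of -0.81 in Wagyu x Angus LD. No array overlapped, and the difference was -0.34 ± 0.08 (adjusted p = 0.0311). The difference was -0.34 ± 0.14 on supplement (unadjusted p = 0.0376) and -0.30 ± 0.05 in fat (adjusted p = 0.00186), with each of the 5 depots between -0.49 and -0.23. The second probe of the gene differed by -0.04 in LD.

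IMMP1L, a peptidase of the inner mitochondrial membrane, differed by -0.83 ± 0.22 in LD (adjusted p = 0.0489), by -1.18 ± 0.15 on supplement (unadjusted p = 4.08e-05) and by -0.22 ± 0.05 in fat (adjusted p = 0.0226). On scan day 3 the LD difference was -0.17 ± 0.08 (adjusted p = 0.256), and its second probe differed by 0.21 with all arrays. MYH9, the non-muscle myosin of stress fibres, differed by 0.997 ± 0.25 in LD (adjusted p = 0.0416), by 1.34 ± 0.46 on supplement (unadjusted p = 0.0191) and by 0.61 ± 0.15 in fat (adjusted p = 0.0385). The other 3 probes of MYH9 differed by -0.08 to 0.61 in LD. For scan day 3 alone, MYH9 stood at 0.87 ± 0.39 (adjusted p = 0.216) and TP53RK at -0.24 ± 0.09 (adjusted p = 0.130). In each of these 3 genes 1 probe passed in LD.

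SLC38A9 had its difference in fat too, at 2.46 ± 0.47 (adjusted p = 0.00601), with 1.39 to 3.12 in the single depots, which share carcasses, but on supplement it stood at 0.83 ± 1.06 (unadjusted p = 0.452). The probes A_73_111439 and A_73_P109781, which target 1 transcript without a symbol here, differed by 0.88 ± 0.17 and 0.86 ± 0.17 in LD on pasture (adjusted p = 0.0175 and 0.0189). They differed by 0.87 ± 0.27 and 0.92 ± 0.27 on supplement and by 1.09 ± 0.12 and 1.13 ± 0.12 in fat. A_73_107275, also without a symbol, was lower in LD (-0.41 ± 0.09, adjusted p = 0.0315) and in fat (-0.87 ± 0.08). These probes were chosen after their values were seen.

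**Figure D5:**
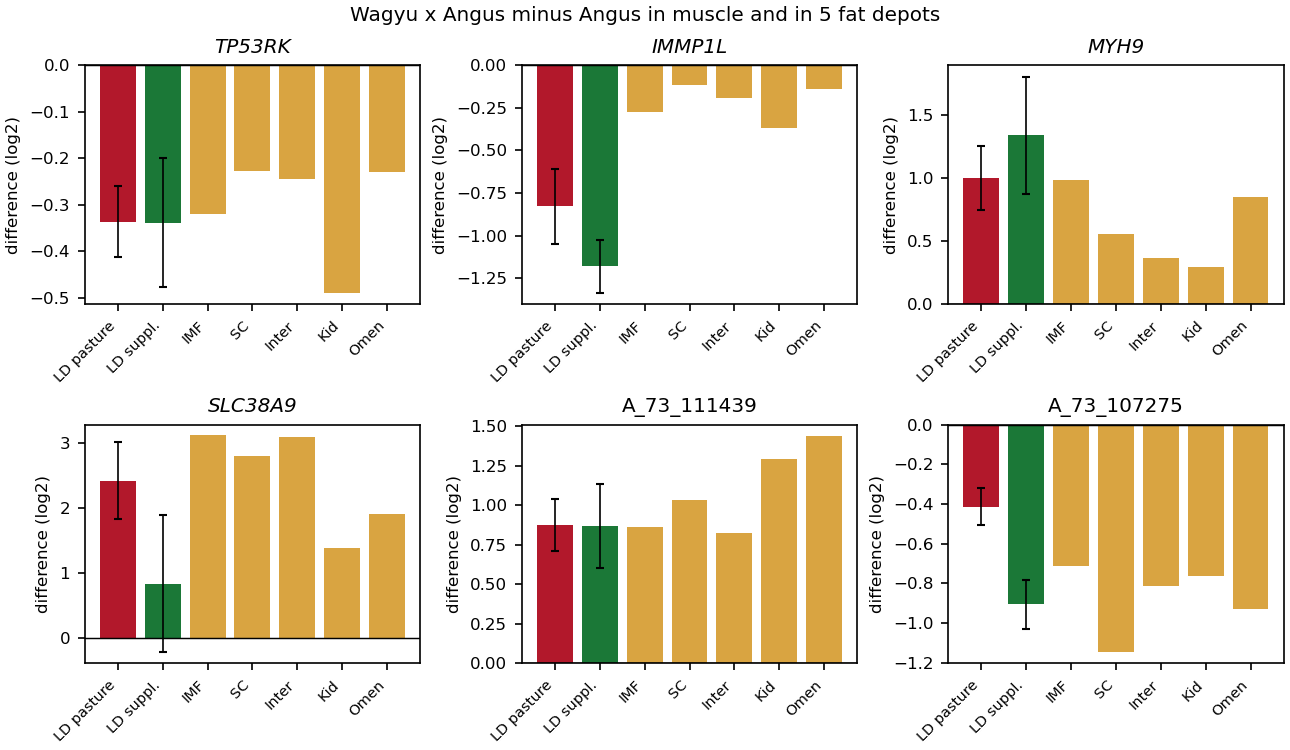
Difference between Wagyu x Angus and Angus (y axis, log2) in LD on pasture, LD on supplement and each of the 5 fat depots (x axis) for 4 genes and 2 probes without a symbol. Bars are differences of group means, with SE shown for the LD fits. In each panel all 7 bars have one direction. All but SLC38A9 were selected for having one sign in LD on pasture, on supplement and in the fat depots together.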

How the data were processed

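The members and gene lists were chosen with earlier results of these data known. Per the file headers, Agilent Feature Extraction 10.7.3.1 gave each spot an intensity, of which the deposited processed signal has the background subtracted and no scaling between arrays. In the value table that the authors deposited, 34227 probes have log2 values, and these probes were tested. The study describes its values as normalised by a mixed model, but the array medians of the deposited values run from 6.65 to 8.96. No spot was saturated, outlier spots were left out, and the scanner's own flag says which spots were well above background. Probes were named by RefSeq accession or the study's tables (62.3%, 10577 genes). Those with LOC names count as unnamed. Some genes that counts include are not reported here by name.

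The scanner files were read with R 4.3.3 and its data.table package (1.17.8). Breeds were tested by limma 3.58.1, with its lmFit and eBayes steps, on the arrays compared, with depot as a factor for fat, and Benjamini-Hochberg adjustment over all probes. Methods were tested on simulated data with independent arrays and no difference between slides, so that test does not bear on the slides here. Named genes, by 1 probe each, were the 12 largest differences per direction past the threshold and well above background on at least 4 arrays of a group, up to 10 that also passed in fat with the same sign on supplement, list members past the threshold, and fixed fat and muscle genes. A list takes the probe with the highest mean over the 36 LD arrays. The labels do not say that samples are separate steers, so p-values measure the spread between samples. The number of arrays limits precision. Quantile normalisation, centring, normexp (offset 50, on the median signal), the authors' log2 values, other probe filters, all 36 LD arrays, blocks and left-out arrays were alternatives. Figures used Python 3.11.15, pandas 2.3.3, numpy 2.4.6 and matplotlib 3.10.9.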

Additional observations from a re-analysis of the deposited data

Results flagged for a closer look

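In 5 of the 88 groups of 8 pasture arrays tested, 1 array stood far from the others, and chance flags about 1 group in 20. GIMAP5 stood at 0.94 on position 1 of slide 23 in Angus, with the next array at 0.39, and CD79A at 1.18 on the same array, with the next at 0.90. OOEP stood at -0.0817 on position 3 of slide 23 in Angus, with the next at -1.77. ZNF548 stood at 0.37 on position 3 of slide 20 in Wagyu x Angus, the lowest by far, with the next at 1.51. CACNG4 stood at -0.24 on position 3 of slide 14 in Wagyu x Angus, with the next at -1.09.

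The breed difference on pasture and that on supplement differed from each other at 1166 probes, by a test of the difference itself. The feeding groups lay on different slides, so feeding and slide cannot be told apart. Among the named genes, the pasture difference minus the supplement difference was 2.25 for KRTAP10-2 (adjusted p = 0.0255), 2.18 for RND2 (adjusted p = 0.0212, with 0 of 8 Angus pasture arrays well above background, so that its size is not settled), 1.13 for CD79A (adjusted p = 0.00372) and -2.26 for LEP (adjusted p = 0.0430).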

How the results depend on the processing

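All 31 named genes past the threshold kept their direction in the 17 alternatives other than leaving out 1 array. Of their calls 31 were kept with the filter on dim probes, 27 with quantile normalisation, 29 with centring, 26 with normexp, 25 with the spread from all 36 LD arrays and 22 with the authors' log2 values less each array's 75th percentile, but 6 with scan day as a block, 6 with the 96 arrays, 4 with the replicate block, 0 with the authors' log2 values, 3 within scan day 3, 7 without slide 2, 12 without slide 13, 2 without slide 14, 26 without slide 20, 29 without slide 23, and 0 with slide as a random block. The probe count of 1206 was 2240 with normexp, 2920 with scan day as a block, 1938 within scan day 3, 0 with slide as a random block, 492 without slide 13, 218 without slide 14, 4630 without slide 20, 8958 without slide 23, and 7910 by the unadjusted methods' t-test (1240 after Benjamini-Hochberg). It was 274 with scan day as a block over all 96 arrays, an alternative chosen after seeing the data. The 5 list genes called became 22 with normexp, 27 with scan day as a block, 13 within scan day 3, 1 without slide 13, 86 without slide 20, 70 without slide 23, 9 with the authors' log2 values less each array's 75th percentile (chosen after seeing the data), and 0 with slide as a random block, without slide 14 or with the 96 arrays. The authors' log2 values, whose medians differ between arrays, gave 0 probes on pasture (median -0.35) and 0 list genes. They gave 20930 on supplement, 245 for dependence on feeding, 138 in fat and 30324 between the Wagyu x Angus slides. With scan day as a block over the 24 arrays of both feeding groups (chosen after seeing the data), dependence on feeding, 1166 probes in the report, was 3090. With no call on pasture the authors' log2 values gave no share of signs on supplement. That share was 74.0% with quantile normalisation and 49.9% for calls within scan day 3 (chosen after seeing the data). The causes were not tested.

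With the position on the slide as replicate block, 150 probes and 0 list genes passed on pasture, and SCD in LD on pasture stood at 0.00035. Between the breeds, arrays of the same number did not deviate together (median correlation 0.017, beside -0.0092 for other numbers). That comparison cannot tell whether a number marks the same steer within a breed. The block changed no other count by over 1.5 times. Leaving out 1 array gave 381 to 2356 probes on pasture, 0 to 13 list genes, 3589 to 5974 on supplement, 623 to 1609 for dependence on feeding, and 8857 to 10327 and 3027 to 5250 between slides within Angus and Wagyu x Angus.

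Of the uncalled genes, 12 changed sign with scan day as a block and, with the same values, within scan day 3: MYH2 -0.0723, MYH7 -0.0018, MYH1 -0.0166, SCD 0.74, FASN 0.71, LPL 0.44, FABP4 0.54, CIDEA 0.10, PPARG 0.28, ADIPOQ 0.17, PLIN1 0.43 and LEP 1.03. With the authors' log2 values MYH2 was -0.20, MYH7 -0.10 and MYH1 -0.16. SCD was 0.12 without slide 2, 0.0734 without slide 13 and 0.25 without slide 14, LEP 0.39 without slide 2 and 0.15 without slide 14, and LPL 0.26 without slide 14. Leaving out 1 array gave -0.17 to 0.0734 for SCD and -0.31 to 0.0032 for LPL. Dim probes limit NNAT, RND2, SLC38A9 and LHFPL6.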
